A study of Drosophila melanogaster with 4 samples.

Results

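DopEcR (Dmel_CG18314) and speck (Dmel_CG3318) are 2 genes of monoamine biology that were followed here in heads of fruit flies (Drosophila melanogaster) fed the antiepileptic drug levetiracetam. They were taken by gene symbol from the 6793 genes that the array's annotation names singly, and they were chosen by their measured mean ratios, which lay low in this same comparison, so their values in it are a description and carry no test. DopEcR had 2 features on the array and speck 1, among 13824 features, where a feature is a pair of neighbouring spots. Both genes had a value on all 4 arrays, in all 6 of their spots.

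Unmated adult males of the Oregon-R wild type were kept for 3 days on food with 5 mg/ml levetiracetam, after 7 days on normal food, and their controls stayed on normal food throughout. Vials held 30 flies. RNA came from 8 pools of heads, which formed 4 sets of 1 treated and 1 control pool, and each set went onto 1 spotted cDNA array with 2 dyes. The dyes were swapped: the treated pool was labelled with Cy5 on the arrays of replicates 1 and 2, and with Cy3 on those of replicates 3 and 4. The labels give the age of the flies inconsistently, as 3 to 4 days in the sample characteristics but, in the design text, as 7 to 10 days when feeding began. Growth after collection is given as 10 to 11 days, except for the control channel of replicate 1 and the treated channel of replicate 4, where it is 2 to 3 days. In pooled heads, fewer cells of a type and less RNA per cell cannot be told apart.

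Monoamines such as dopamine, serotonin, octopamine and tyramine act in the fly brain through G protein-coupled receptors. DopEcR codes for one that responds to dopamine and also to ecdysteroids, the insect steroid hormones, and it works at the cell membrane rather than through the nuclear ecdysone receptor EcR. The gene speck codes for an arylalkylamine N-acetyltransferase. This enzyme acetylates dopamine, serotonin and other monoamines, a route by which insects inactivate these transmitters, and the acetylated dopamine is also used in hardening and colouring the cuticle.

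All values are log2 ratios. Which channel is the numerator is not given in the sources used here. The ratio was taken as Cy5 over Cy3, a likely direction since all arrays name Cy5 as channel 1, and replicates 3 and 4 were turned so that a value below 0 means less transcript with levetiracetam. A second reading, under which these arrays were turned before deposit, is given as the values as deposited. Ratios give no level, so the abundance of DopEcR and speck themselves, or of one against the other, was not measured. Between 29.1% and 45.6% of spots had a value per array. Turned array medians were -0.15, -0.16, 0.080 and 0.31 for replicates 1 to 4, and no array was centred in the main setting. As a check of the tissue, a value on at least 3 arrays was present for 2 of 4 photoreceptor markers on the array, for the neuronal marker nSyb, for 2 of 3 glial, 3 of 5 fat body and 2 of 2 muscle markers. The fat body marker apolpp, the lipoprotein precursor gene, had ratios of -0.65, -0.60, -0.30 and 0.24 in replicates 1 to 4, while bmm had 0.32, 0.042, 0.44 and 1.03 and Lsp2 had a mean of 0.051 on 3 arrays; the part of fat body RNA in the values of DopEcR and speck was not tested. Of 3 markers of testis or accessory gland, listed as absent from a clean head, 1 had a value on at least 3 arrays. This was Mst77F, measured in 1 of its 2 features, at -0.13, -0.15 and -2.67 in replicates 1, 2 and 4. Mst87F had a value in replicate 2 only, at -0.56. Carry-over of such tissue was not tested.

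DopEcR, the receptor, had a mean ratio of -0.30 ± 0.34 (SD, n = 4) over both its features, which is 1.23-fold lower with levetiracetam in the likely direction. Its gene means were -0.25 in replicate 1, -0.75 in replicate 2, -0.28 in replicate 3 and 0.082 in replicate 4. The gene thus lay below 0 on 3 of 4 arrays, with replicate 2 by far the lowest and replicate 4 slightly above 0. Among 1632 genes measured on every array, 22.2% lay below 0 on at least 3. Without replicate 2 the mean was -0.15, and without replicate 4 it was -0.43.

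The first feature of DopEcR (spots 12231 and 12232) had ratios of -0.28, -0.82, -0.30 and -0.21 in replicates 1 to 4, with a mean of -0.40 ± 0.28 (SD, n = 4). It was below 0 on all 4 arrays, as were 1.8% of the 2951 features present on all arrays, and 3 of the 4 ratios lay within a narrow range while that of replicate 2 stood apart. Its mean without replicate 2 was -0.26. Of the 3980 features measured on at least 3 arrays, 90 had a lower mean.

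The second feature (spots 14609 and 14610) had ratios of -0.22, -0.68, -0.27 and 0.37, with a mean of -0.20 ± 0.44 (SD, n = 4). In replicates 1 to 3 it followed the first feature closely, and in replicate 4 it had the opposite sign, so it was below 0 on 3 arrays, where 21.9% of features were on 3 or more. The difference between the 2 features was 0.059, 0.14 and 0.031 in replicates 1 to 3 and 0.58 in replicate 4. Genes with 2 features on the array differed between them by a median of 0.25 to 0.36 per array, so the features of DopEcR agreed more closely than most on 3 arrays and less closely on the last, where 66.4% of 143 such genes had a smaller difference. The mean of the second feature without replicate 2 was -0.038, and without replicate 4 it was -0.39.

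Within a feature, the neighbouring spots of DopEcR gave nearly the same ratio on some arrays and not on others. In replicate 2, where both features were lowest, the 2 spots of the first feature read -0.83 and -0.82 and those of the second -0.67 and -0.69. Their differences of 0.0090 and 0.021 were smaller than those of all but 1.89% and 4.82% of the 6289 spot pairs on that array. The low ratio of replicate 2 was therefore present in all 4 DopEcR spots, at both positions on the slide. In replicate 4 the spots also agreed within each feature, with -0.17 and -0.25 in the first and 0.35 and 0.39 in the second, so the disagreement there was between the features and not between neighbouring spots. In replicates 1 and 3 the spots of the first feature differed by 0.33 and 0.38, against a median of 0.27 and 0.23 over all pairs.

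**Figure D1:**
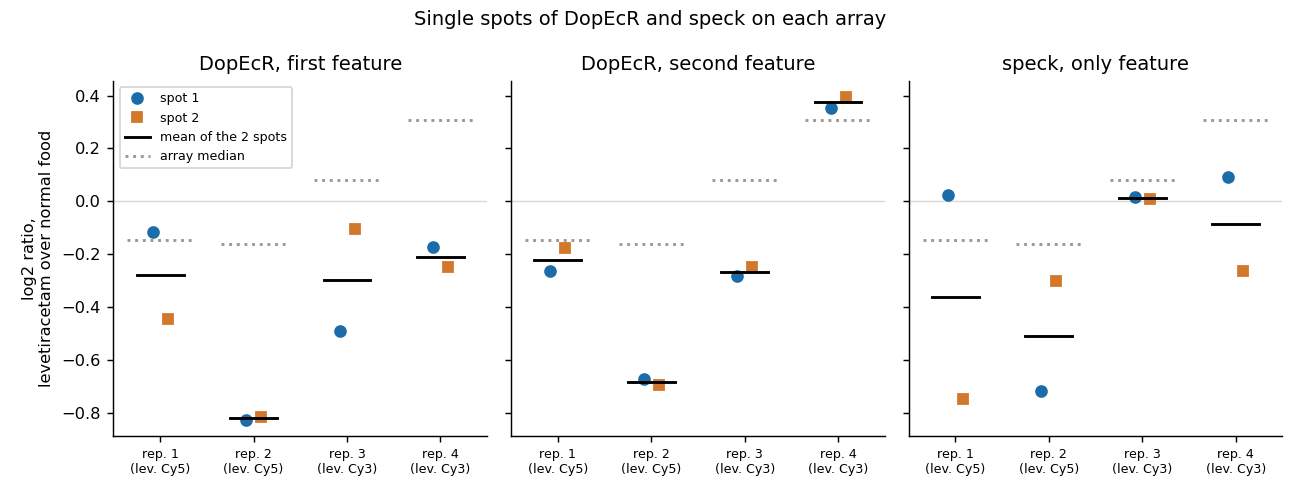
Log2 ratio of levetiracetam over normal food (vertical axis, replicates 3 and 4 turned) of each spot of DopEcR and speck on the 4 arrays (horizontal axis). Circles and squares are the 2 neighbouring spots, black bars their mean and dotted bars the median of all features on that array. All 4 DopEcR spots read between -0.83 and -0.67 in replicate 2, while the spots of speck lie up to 0.77 apart in replicate 1.

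The acetyltransferase gene speck had a mean ratio of -0.24 ± 0.24 (SD, n = 4), which is 1.18-fold lower with levetiracetam in the likely direction. Its ratios were -0.36 in replicate 1, -0.51 in replicate 2, 0.0125 in replicate 3 and -0.086 in replicate 4. Replicates 1 and 2 lay below 0 and the dye-swapped arrays close to it. Without replicate 2 the mean was -0.14, and without replicate 3 it was -0.32.

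Its only feature (spots 4691 and 4692) was less even than those of DopEcR. In replicate 1 the spots read 0.025 and -0.75, a difference of 0.77 that was larger than that of 88.6% of the 3997 pairs on the array. In replicate 2 they read -0.72 and -0.30, and in replicate 4 they lay on both sides of 0, at 0.091 and -0.26. Only in replicate 3 did they agree closely, at 0.018 and 0.0070. The mean over the 4 arrays was -0.15 from the odd-numbered spots alone and -0.33 from the even-numbered spots alone, so the choice of spot moved it by over 2 times. No second feature of speck was on the array against which this could be set. Across all features the 2 spots of a pair correlated at a Pearson r of 0.27, 0.56, 0.34 and 0.17 in replicates 1 to 4, as a description across features that share an array.

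The spread of the members between arrays was ordinary for these arrays. The SD over the 4 arrays was 0.28 for the first feature of DopEcR, 0.44 for the second and 0.24 for speck, where the median over the 2951 features on all arrays was 0.32. A smaller SD was found for 40.4%, 71.0% and 30.0% of features.

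The array medians differ by more than the members' own means, so the members were also placed within each array. Among all features of an array in the likely direction, the first feature of DopEcR had 35.2%, 13.6%, 10.4% and 7.16% of features below it in replicates 1 to 4. For the second feature these shares were 41.8%, 17.8%, 12.1% and 56.7%, and for speck 27.0%, 24.6%, 41.7% and 12.5%. All 3 features lay in the lower part of each array, with the second feature of DopEcR in replicate 4 as the exception.

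**Figure D2:**
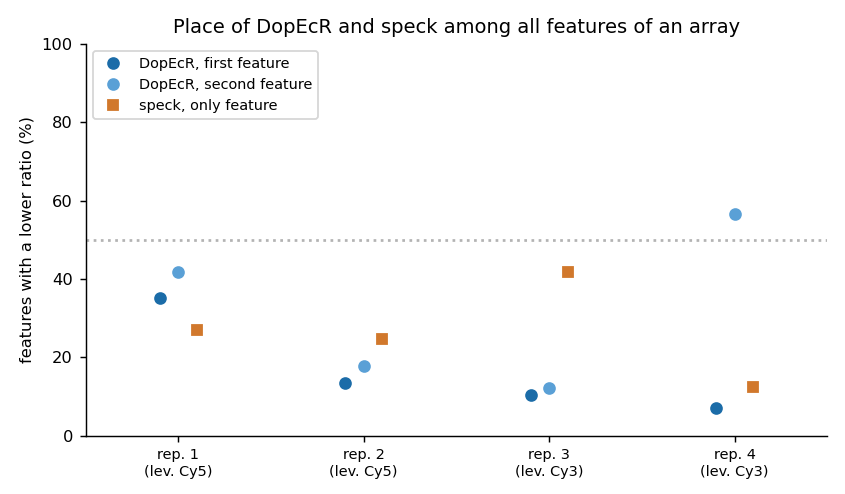
Share of features on an array with a lower log2 ratio of levetiracetam over normal food (vertical axis, in percent) for the features of DopEcR and speck on each array (horizontal axis). The dotted line marks the middle of the array. The first feature of DopEcR goes from 35.2% in replicate 1 to 7.16% in replicate 4, and only the second feature in replicate 4 lies above the middle, at 56.7%.

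With each array centred on its median, the gene means of DopEcR and speck were below 0 on all 4 arrays, as were those of 4.29% of genes. Both were chosen for a low mean, so this share is no yardstick for them. DopEcR then had -0.10, -0.59, -0.36 and -0.22 in replicates 1 to 4, with a mean of -0.32 ± 0.21 (SD, n = 4). Its second feature alone stayed above 0 in replicate 4, at 0.0675. For speck the values were -0.21, -0.35, -0.067 and -0.39, with a mean of -0.26 ± 0.15. The turned ratio of speck near 0 in replicate 4 was thus its lowest relative to the array, since that array's median was 0.31.

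The slide was printed in 48 blocks, and the 3 features lay in 3 different ones. With the median of the block subtracted on each array, DopEcR had -0.013, -0.72, -0.25 and -0.24 and a mean of -0.31 ± 0.30 (SD, n = 4). The corresponding values of speck were -0.29, -0.13, -0.039 and -0.37, with a mean of -0.21 ± 0.15. Both gene means were below 0 on all 4 arrays on this scale too, as were those of 5.58% of genes. The second feature of DopEcR alone was below 0 on only 2 of 4 arrays, with 0.00050 in replicate 1 and 0.0505 in replicate 4. The block of speck was itself low in replicate 2, with a median of -0.37 over 194 features, and subtracting it moved speck from -0.51 to -0.13 there. The blocks of DopEcR were at 0.00050 and -0.057 in replicate 2, so its low ratio on that array stayed. In replicate 1 the DopEcR blocks stood at -0.25 and -0.22, and its ratio came to lie next to 0.

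The reading of the deposited ratio changed where the 2 genes stood more than any of these settings. With the values as deposited, the mean of DopEcR was -0.20 ± 0.43 and that of speck -0.20 ± 0.28 (SD, n = 4). Each was below 0 on 3 of 4 arrays, as 61.8% of genes were on 3 or more. Both means stayed below 0, but 81% of the 2259 genes on at least 3 arrays then had a mean below 0, against 42.7% in the likely direction. By rank, 4.96% of genes had a lower mean than DopEcR and 7.75% a lower mean than speck in the likely direction, and 46.4% and 46.9% did as deposited. Under the second reading both genes stood near the middle of all genes.

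**Figure D3:**
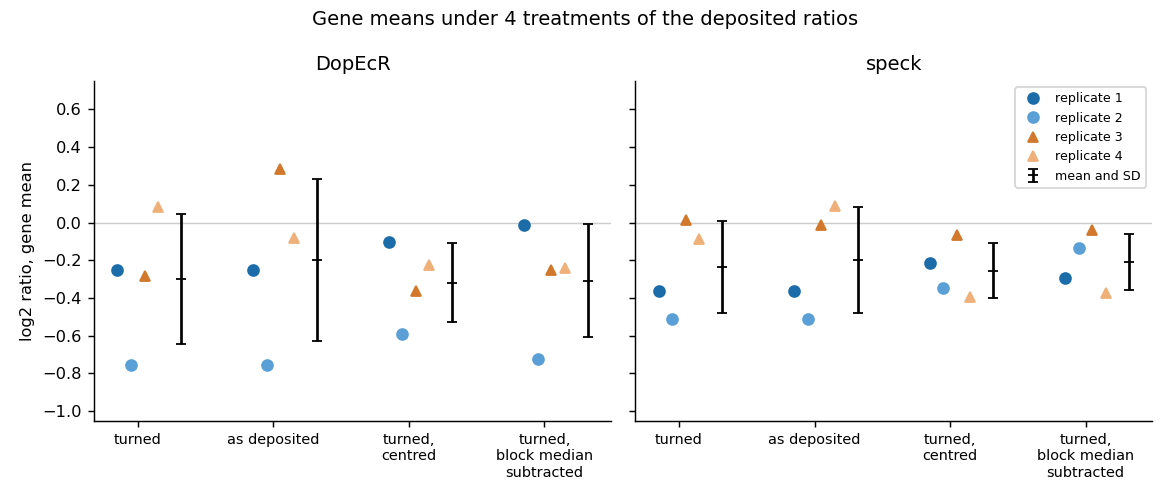
Gene means of DopEcR and speck as log2 ratios (vertical axis) for each array, with circles for replicates 1 and 2 and triangles for replicates 3 and 4, under 4 treatments of the deposited ratios (horizontal axis). Black bars give the mean and SD over 4 arrays. With arrays centred all gene means lie below 0, while the second feature of DopEcR alone, not drawn, was at 0.0675 in replicate 4. As deposited 1 of the 4 points of each gene lies above 0.

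The dye orientation term asks whether a ratio follows the dye rather than the drug, and the choice of the genes did not use it. With all 4 arrays it equals the mean of the values as deposited, so it would be the treatment effect under the second reading. The first feature of DopEcR had a deposited mean of -0.55 in replicates 1 and 2 and of 0.25 in replicates 3 and 4, with an orientation term of -0.15 ± 0.15 (SE) and a limma adjusted p of 0.59. The second feature had -0.45 and -0.054, a term of -0.25 ± 0.16 and a limma adjusted p of 0.40. For speck the means were -0.44 and 0.036, the term -0.20 ± 0.13 and the limma adjusted p 0.42. None of the 3 passed, where 1.31% of the 3980 features did, or 52 features. On gene means the limma adjusted p was 0.49 for DopEcR and 0.46 for speck, where 4.16% of the 2259 genes passed, or 94 genes. With arrays centred the terms of the 3 features lay between -0.080 and 0.025, and 0 features passed in limma, with 521 at an unadjusted p under 0.05.

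In the levetiracetam contrast itself, limma called 0 of 2259 genes and 0 of 3980 features at adjusted p 0.05, a background of 0%. At an unadjusted p under 0.05 there were 60 genes and 105 features.

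Further genes of monoamine signalling were read from lists made by role, with earlier results of these data known. Of 45 listed genes 20 were on the array, 13 had any value and 8 had a value on at least 3 arrays. Apart from DopEcR and speck, which were chosen by their ratios and are not counted, 6 were tested and none passed. Their median ratio was -0.062, against 0.027 over all 2259 genes. With replicate 2 left out it was 0.058, against 0.0815 over all genes. Of the 6, 4 had a mean below 0, where 42.7% of all genes did. As deposited all 6 were below 0, as were 81% of all genes, and the median was -0.24 against -0.18.

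Among the enzymes of monoamine synthesis, Ddc is the aromatic amino acid decarboxylase that makes dopamine and serotonin. With a value in 1 of its 3 features, it had ratios of -0.022, -0.56, -0.065 and 0.50 and a mean of -0.035 ± 0.43 (SD, n = 4). Pu, the GTP cyclohydrolase of the pathway to the hydroxylases' cofactor, had -0.50, 0.29, 0.038 and 0.26 and a mean of 0.022 ± 0.37. These 2 genes had values on both sides of 0 and means close to it. Hdc, the histidine decarboxylase that makes histamine, the photoreceptors' transmitter, had a mean of 0.10 ± 0.16 on 3 arrays. The tyrosine hydroxylase gene ple, measured in 1 of its 2 features, had values only in replicates 1 and 2, at 0.12 and 0.39.

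Apart from speck, the inactivation and transport list gave few values. The gene t (tan) codes for the hydrolase that frees dopamine and histamine from their beta-alanine conjugates, and its ratios were -0.31, -0.38, -0.17 and 0.41, with a mean of -0.11 ± 0.36 (SD, n = 4). The cuticle pigmentation gene y (yellow) stood at -0.13 in replicate 2 and -0.22 in replicate 4, and CarT, a carcinine transporter, at -0.31 in replicate 2. The gene of the dopamine transporter, DAT, the gene e (ebony), whose product makes those conjugates, and the acetyltransferase genes AANATL3 and AANATL7 were on the array with no value. The acetyltransferase family was therefore represented by speck alone.

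Of the receptors, 5-HT1A, for serotonin, had ratios of -0.34, -0.46, -0.11 and 0.38 and a mean of -0.13 ± 0.37 (SD, n = 4). 5-HT2A, also for serotonin, had 0.12, -0.91, 0.20 and 0.23 and a mean of -0.090 ± 0.55. As for DopEcR, replicate 2 gave the lowest ratio and replicate 4 the highest in both. The same held for Ddc and t, and for the array medians, at -0.16 in replicate 2 and 0.31 in replicate 4. The octopamine receptor genes had values on 2 arrays each, with Octbeta1R at -0.87 in replicate 2 and 1.49 in replicate 4, and Octbeta2R at -0.0015 in replicate 3 and 0.39 in replicate 4. Dop1R1, a dopamine receptor gene, TyrR and 5-HT7 were on the array with no value, so DopEcR was the only dopamine receptor measured. The limma adjusted p of the 6 tested monoamine genes other than DopEcR and speck was 1.00 for each.

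**Figure D4:**
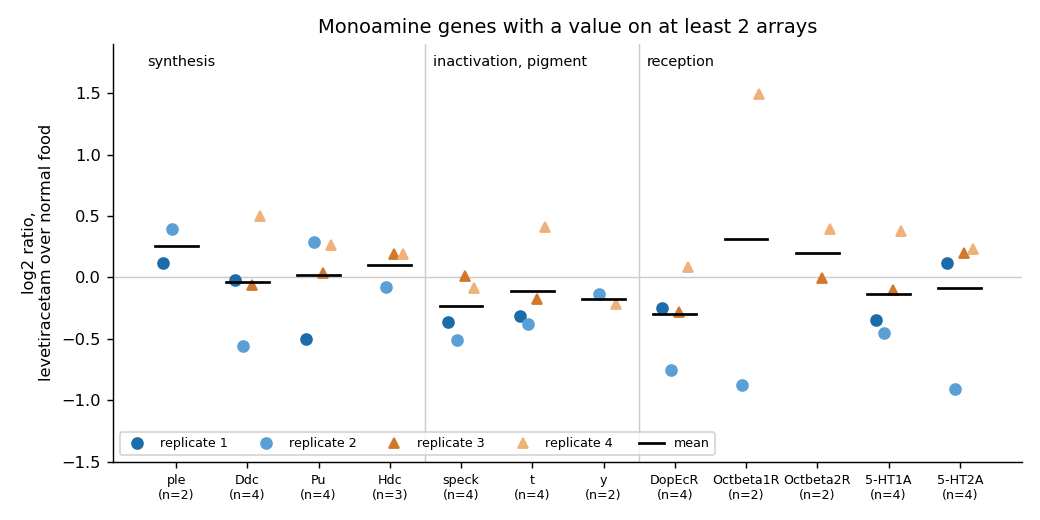
Log2 ratio of levetiracetam over normal food (vertical axis) of each monoamine gene with a value on at least 2 arrays, by role (horizontal axis, n is the number of arrays). Circles are replicates 1 and 2, triangles the dye-swapped replicates 3 and 4, and bars the mean. DopEcR has the lowest mean, at -0.30, followed by speck at -0.24, the values by which they were chosen.

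DopEcR also binds ecdysteroids, so genes of ecdysteroid synthesis, uptake and response were read beside it. Of 21 listed genes that matched a current symbol, 7 were on the array and 2 had a value on at least 3 arrays. The nuclear receptor gene EcR, with a value in 1 of its 4 features, had ratios of -0.092, -0.13, -0.19 and 0.077, with a mean of -0.083 ± 0.11 (SD, n = 4). Its coactivator gene tai, with a value in 1 of its 2 features, had a mean of 0.016 ± 0.13. Neither passed, at a limma adjusted p of 1.00 each, and both varied less between arrays than DopEcR.

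Downstream of such receptors, G proteins, adenylyl cyclases and protein kinase A carry the signal. Of 28 listed genes of cAMP signalling and receptor regulation, 14 were on the array and 7 had a value on at least 3 arrays, of which none passed. Their median was 0.070, with 3 of 7 below 0, against 0.027 and 42.7% over all 2259 genes. As deposited it was -0.34, with 7 of 7 below 0, against -0.18 and 81%. Without replicate 4 it was -0.14, against -0.063. The G protein subunit gene Galphas, which stimulates cyclases, had ratios of -0.50, -0.16, 0.24 and 0.70, with a mean of 0.070 ± 0.52 (SD, n = 4). The values of the cyclase gene Ac76E were -0.36, -0.15, 0.26 and 0.60, and those of Pka-R1, a regulatory subunit of protein kinase A, were -0.37, -0.54, 0.12 and 0.79. These 3 genes were below 0 in replicates 1 and 2 and above 0 in replicates 3 and 4, as were the array medians. Galphao, the subunit gene of an inhibitory type, was below 0 on its 3 arrays, with a mean of -0.21 ± 0.15, and the cyclase gene Ac78C was above 0 on all 4, with a mean of 0.13 ± 0.13. Galphaq, with a value in 1 of its 2 features, had a mean of -0.020 ± 0.17. The phosphodiesterase gene Pde8 stood at -0.28 and -0.46 in replicates 1 and 2 and at 1.20 in replicate 4, with a mean of 0.15 ± 0.91 (SD, n = 3), or -0.37 without replicate 4. It was the 1 gene of these lists called for dye orientation, where 4.16% of the 2259 genes were called. Its term of -0.79 ± 0.19 (SE) sets replicates 1 and 2 against replicate 4 alone. With arrays centred that call ended, since limma then called 0 genes for orientation, with 274 at an unadjusted p under 0.05.

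The genes most like each member were taken as those with the smallest Euclidean distance over the 4 turned ratios, over the 1632 genes measured on every array. For DopEcR they were Elovl7, a fatty acid elongase gene, at a distance of 0.19, then CG1896 at 0.25, tyn at 0.26, scramb2 at 0.27 and CG4452 at 0.27. The ratios of Elovl7 were -0.076, -0.71, -0.27 and 0.014. For speck they were CG17683 at 0.084, CG11147 at 0.15, CG3520 at 0.17, CG3448 at 0.20 and 1 further gene at 0.22. The ratios of CG17683 were -0.37, -0.51, 0.00050 and -0.0025. DopEcR and speck were 0.43 apart. By distance, speck ranked 50 for DopEcR and DopEcR ranked 97 for speck, among the 1632 genes. Both were chosen for a low mean of these same ratios, so some closeness between them was built in.

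In the order of genes in the RefSeq table, speck overlaps DnaJ-60, which was on the array with no value, and CG42568, which its annotation does not name, while DopEcR overlaps no other protein-coding gene. Of the closest genes on either side, Zfrp8 beside speck was measured on 3 arrays, at 1.17, -0.86 and 0.32 in replicates 2 to 4. Naa35 had 0.51 and 0.024 in replicates 1 and 2, and CG3328 had only -1.99 in replicate 2.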

How the data were processed

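Heads of levetiracetam-fed and control flies were compared on 4 two-colour cDNA arrays. Per the labels' protocols, the authors scanned slides on a GenePix 4000A, quantified them in GenePix Pro 6.0, normalized ratios in Acuity 4.0 and dropped spots that were flagged, had 3% or more of their pixels saturated or fell under a signal to noise of 2. The deposited table holds a log2 ratio of both channels per spot. The scale was read from the values, whose maximum of 16.61 is the log2 of a ratio of 100000. Direction and centring stay unknown. Intensities were not used here, so no background or brightness filter was run, and the number of arrays limits the precision.

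Neighbouring spots were averaged to features and features to genes. Of 27648 spots, 15116 had 1 symbol, 102 several and 12430 none, and 14894 matched a gene ID in the RefSeq table of assembly Release 6, used for names and gene order only. Features and genes with a value on at least 3 arrays were fitted with limma 3.58.1 in R 4.3.3 (lmFit and eBayes, one-sample, two-sided, Benjamini-Hochberg over all tested, threshold 0.05), and a second fit added dye orientation. The fits were tested on simulated data whose noise lay around 0 on every array. The simulated shifts were larger than the ratios of DopEcR and speck, so the test gives no account of shifts of their size. The design text calls the 4 sets of pools biological replicates, and p-values measure the spread between these arrays. Genes and lists were chosen with earlier results of these data known. From each list, up to 6 tested members with the smallest p, and every monoamine gene on at least 2 arrays, were open to be named, as were the 5 genes nearest to each member. Genes named for having no value or a value on 1 array, and the neighbouring genes, were chosen after their values were seen.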

Additional observations from a re-analysis of the deposited data

Results flagged for a closer look

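Replicate 2 stood far from the other 3 arrays in 2 of 19 sets of 4 values. These sets share the same arrays, and DopEcR was chosen by a mean that holds this value, so the usual rate of about 1 in 20 by chance is no yardstick for them. The first feature of DopEcR was at -0.82 in replicate 2, against -0.30 to -0.21 on the other arrays. The serotonin receptor gene 5-HT2A was at -0.91 in replicate 2, against 0.12 to 0.23 on the others.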

How the results depend on the processing

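The means of DopEcR and speck stayed below 0 in all 10 alternatives run for each, and moved by less than the SD between arrays. These alternatives reuse the arrays by which the genes were chosen. Requiring both spots could change nothing, since no spot of the genes lacked a value. Leaving out 1 array gave -0.43 to -0.15 for DopEcR and -0.32 to -0.14 for speck, highest without replicate 2 for both. Other settings gave -0.32 to -0.20 and -0.33 to -0.15. The median of the 6 other monoamine genes lay between -0.21 (without replicate 4) and 0.058 (without replicate 2) with an array left out. Over all 2259 genes the median was -0.063 without replicate 4 and 0.0815 without replicate 2. With dye orientation as a covariate limma called 1 of 3980 features and 4 of 2259 genes for levetiracetam. With arrays centred or with the block median subtracted it called 1 of 2259 genes. At so low a share, whether genes of the 5 lists were among them is no result about the lists. The other alternatives gave 0 features and 0 genes. For the orientation term, the 52 features became 0 with arrays centred, 0 with the block median subtracted, 23 from even-numbered spots against 75 from odd-numbered ones, 12 with values on all 4 arrays and, leaving out 1 array, from 0 (without replicate 3) to 140 (without replicate 1), where 1 orientation rests on a lone array assumed to vary like the others. The cause of these changes was not tested. With the values as deposited the term becomes the levetiracetam contrast by construction, and it then called 1 feature. The orientation term was not run on features with values on 2 arrays, which leave no degree of freedom. Each array's ratio is already the difference within 1 set of pools, so every fit here is paired and no unpaired or further blocked fit was possible.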
